A study of Mus musculus with 8 samples.

Results

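The stellate cell and fibrosis genes were 10 of the 16540 genes counted in mouse liver, taken by their symbols: the fibrillar collagen genes Col1a1, Col1a2 and Col3a1, the matrix proteoglycan genes Lum and Dcn, the crosslinking enzyme gene Lox, the protease inhibitor gene Timp1, the cytoskeletal genes Acta2 and Des, and the growth factor gene Tgfb1. Messenger RNA was sequenced from the livers of Apoe-/- mice, which lack apolipoprotein E and develop high blood cholesterol and atherosclerosis. All animals received a high cholesterol diet and intraperitoneal injections. The vehicle group (n = 4) received the solvent, DMSO, and the ISOGK group (n = 4) received isoginkgetin (ISOGK), a plant biflavonoid, at 20 mg/kg/day for 8 weeks. Every mouse therefore carried the Apoe deletion and the diet, and no group on chow or with intact Apoe was part of the comparison. Age and sex of the sequenced animals were not given in the sources used here. The labels number the samples within each group without saying that each came from a separate animal. They are called mice below, and the p-values measure the spread between these samples.

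Hepatic stellate cells lie between hepatocytes and the sinusoidal endothelium and store vitamin A when quiescent. After liver injury they can turn into contractile myofibroblasts that express smooth muscle actin and secrete fibrillar collagen, a change driven largely by transforming growth factor beta. Secreted procollagen is trimmed, assembled into fibrils, decorated by small leucine-rich proteoglycans and crosslinked by lysyl oxidases, and its removal by metalloproteinases is held back by tissue inhibitors. Portal fibroblasts and vascular smooth muscle cells share many of these genes, so that in whole liver none of them belongs to stellate cells alone.

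The collagens among these genes are recognised by their coding sequence, in which each Gly-X-Y triplet opens with a glycine codon, the residue that lets the chains wind into a triple helix. The first 54 coding bases of the longest uninterrupted Gly-X-Y run are shown to let the 3 chains be compared. Capitals mark the glycine codon that opens each triplet. In Col3a1, the lower-case codons gga and ggt also encode glycine, at other positions of their triplets. They were read from GENCODE M21 transcripts on the plus strand of GRCm38, with Col1a1 spanning exons 6 to 7 at chr11:94939451-94939741, Col1a2 spanning exons 6 to 7 at chr6:4512406-4515254 and Col3a1 spanning exons 5 to 6 at chr1:45323762-45325377.
Col1a1: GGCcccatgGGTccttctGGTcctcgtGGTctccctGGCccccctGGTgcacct
Col1a2: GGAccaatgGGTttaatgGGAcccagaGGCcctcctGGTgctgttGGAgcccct
Col3a1: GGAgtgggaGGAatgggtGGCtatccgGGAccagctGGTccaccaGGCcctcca
The run extended over 338 triplets in Col1a1, 339 in Col1a2 and 344 in Col3a1. It took up 69.8% of 1453 codons, 74.1% of 1372 codons and 70.5% of 1464 codons, respectively. The bases between the codons in capitals differ between the 3 genes in the stretch shown.

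In GRCm38, Lum (chr10:97565128-97572703) and Dcn (chr10:97479609-97518143) are neighbours on the plus strand, 46984 bases apart. Col3a1 (chr1:45311538-45349706) lies 24614 bases from Col5a2, another fibrillar collagen gene. Col1a1 (chr11:94936224-94953042), Col1a2 (chr6:4504814-4541544), Acta2 (chr19:34241090-34255590), Timp1 (chrX:20870166-20874735), Tgfb1 (chr7:25687002-25705077), Des (chr1:75360329-75368579) and Lox (chr18:52516067-52529867) have other coding neighbours. Exons of other annotated genes overlapped those of Col3a1 by 141 bases, Des by 220 bases and Lox by 30 bases. The use of strand in counting was not given in the sources used here, so reads in these overlaps cannot be assigned with certainty.

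Each library held between 17457106 and 24461854 counts. Composition factors (TMM) lay between 1.02 and 1.09 in the vehicle group and between 0.883 and 1.01 in the ISOGK group, and ISOGK mouse 4 had the lowest. A pair of libraries needs naming before the results. Vehicle mouse 4 contained 88.9 CPM (counts scaled to library size and composition) of 12 skeletal muscle markers, against at most 0.681 in any other mouse. ISOGK mouse 4 had the lowest level of the 3 collagens and Dcn and the second lowest of Lum, Des and Lox, so values without it are given where they change a call. The summed CPM of 6 hepatocyte markers was highest in this mouse, at 187375, against 137938 to 164125 in the other mice. These CPM carry the composition factor, which was lowest in this library (0.883).

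None of the 10 genes passed the test of ISOGK against vehicle. Of the 9 that could be tested, 0 had an adjusted p under 0.05 (edgeR quasi-likelihood test, Benjamini-Hochberg over all 12307 tested genes), and Timp1 was below the filter on low counts. The same threshold was passed by 7.55% of all tested genes (4.11% higher and 3.44% lower). With an absolute log2 fold change over 1 as well, it was passed by 1.63% (0.999% higher and 0.626% lower). At an unadjusted p under 0.05, Acta2 and Tgfb1, both lower with ISOGK, were the 2 of the 9 genes found, against 24.2% of all genes in either direction and 11.6% lower. By the other tools, limma-voom and DESeq2, 0 of the 9 genes were called as well. The 9 log2 fold changes had a median of -0.10, with 3 above and 6 below zero, and the median over all tested genes was 0.00176.

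The count of 0 depended on 1 library. Without ISOGK mouse 4, 2 of the 9 genes passed: Acta2, lower with a log2 fold change of -1.11 (adjusted p = 0.0247, edgeR), and Lum, higher with a log2 fold change of 0.86 (adjusted p = 0.0400). In that fit 392 of all 12457 tested genes were called higher and 287 lower. Leaving out any of the other 7 mice left 0 of the 9 genes called. In bulk tissue, fewer cells of a type and less RNA per cell cannot be told apart, for these genes or for any marker below.

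**Figure D1:**
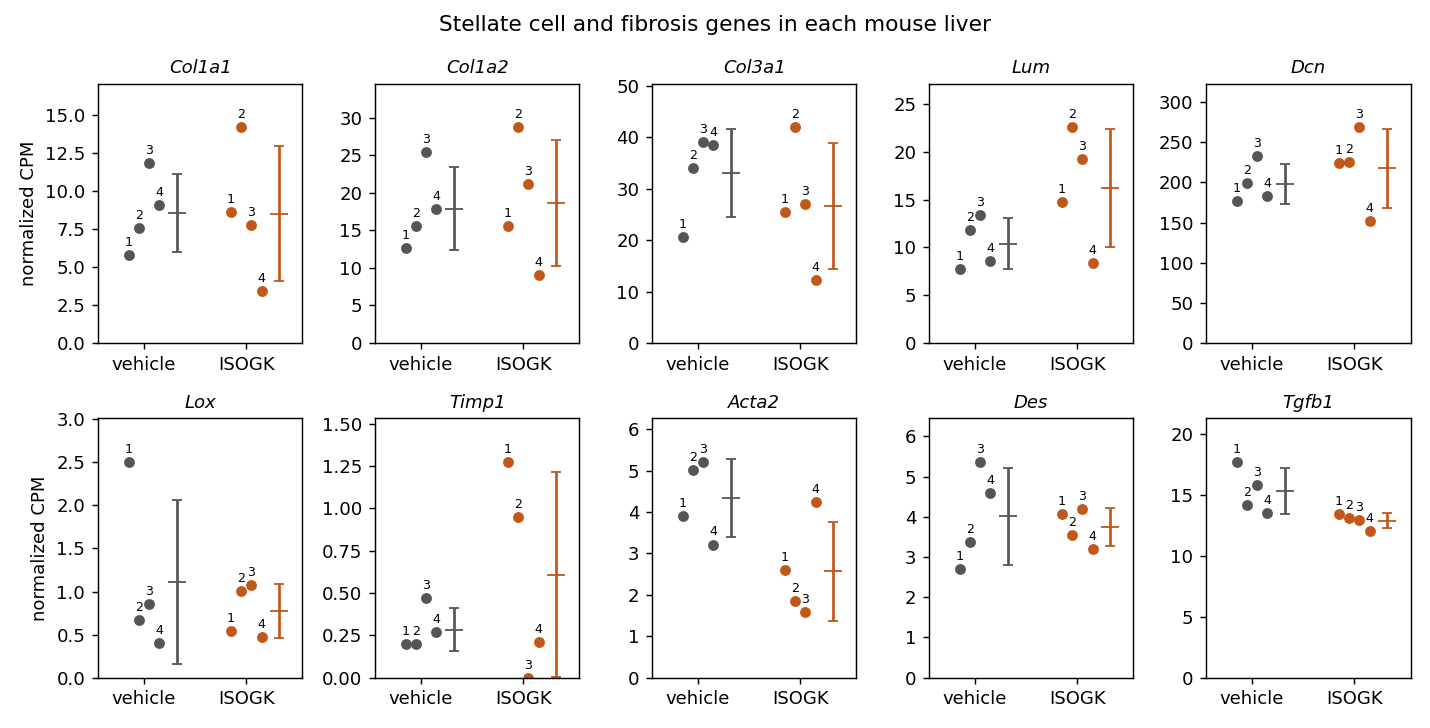
Normalized CPM (y axis, linear and starting at 0) of the 10 genes in each mouse of the vehicle and ISOGK groups; points are mice labelled by number, and the bar beside them is the mean ± SD (n = 4). The groups overlap in every panel except Tgfb1, where the ISOGK mice lie between 11.998 and 13.4 and the vehicle mice between 13.5 and 17.7.

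Expression levels of the 10 genes, compared per kilobase of transcript over all 8 mice, were led by Dcn, which encodes decorin, a proteoglycan that binds collagen fibrils and TGF-beta. Dcn averaged 118 CPM per kb, with a range of 86.2 to 153. Tgfb1 followed at 6.47 CPM per kb, Lum at 5.45, Col3a1 at 5.37 and Col1a2 at 3.41. Acta2 (1.70 CPM per kb), Col1a1 (1.44), Des (1.28), Timp1 (0.505) and Lox (0.198) were lowest. Only Dcn had a range that did not overlap that of the next gene. Lum and Col3a1, with similar means, could not be ordered, since Lum was the higher in 4 of 8 mice, whereas Col3a1 exceeded Col1a2 in all 8 mice.

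Type I collagen is a trimer of the chains encoded by Col1a1 and Col1a2 and is the main collagen of scar tissue. Col1a1 measured 5.77, 7.56, 11.8 and 9.11 CPM in vehicle mice 1 to 4 and 8.63, 14.2, 7.75 and 3.41 CPM in ISOGK mice 1 to 4. ISOGK mice held both the highest and the lowest value, and the vehicle mice lay between them. The group means were 8.57 ± 2.57 and 8.51 ± 4.46 CPM (SD, n = 4), and the log2 fold change was -0.01 with an SE of 0.38 (95% interval -0.88 to 0.86, edgeR adjusted p = 0.987). Col1a2 measured 12.6, 15.5, 25.5 and 17.9 CPM with vehicle and 15.5, 28.8, 21.1 and 9.01 CPM with ISOGK. ISOGK mice 2 and 4 again stood at the extremes. Its log2 fold change of 0.05 had an SE of 0.35 (95% interval -0.74 to 0.85, adjusted p = 0.947). The sign of both fold changes turned with the mouse left out, and that of Col1a2 also with limma-voom and without composition factors. As folds, the intervals ran from 0.542 to 1.81 for Col1a1 and from 0.597 to 1.80 for Col1a2, and 4 mice a group could not narrow them further.

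Type III collagen, encoded by Col3a1, forms the reticular fibres of liver and accompanies type I collagen in early scars. Col3a1 measured 20.6, 34.1, 39.0 and 38.5 CPM with vehicle and 25.6, 42.1, 27.0 and 12.2 CPM with ISOGK. In the ISOGK group, 3 of 4 mice lay below 3 of the 4 vehicle mice, yet ISOGK mouse 2 was the highest of all. The log2 fold change was -0.31 with an SE of 0.36 (95% interval -1.14 to 0.52, adjusted p = 0.655).

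Lumican, the product of Lum, regulates the diameter of collagen fibrils. Lum measured 7.73, 11.8, 13.4 and 8.62 CPM in the vehicle group and 14.8, 22.6, 19.3 and 8.33 CPM in the ISOGK group. ISOGK mice 1 to 3 were all above the vehicle mice, and ISOGK mouse 4 lay among them. Means of 10.4 ± 2.67 and 16.3 ± 6.19 CPM gave a log2 fold change of 0.64 with an SE of 0.29 (95% interval -0.02 to 1.30, edgeR adjusted p = 0.222). The exact permutation test of log2 CPM, two-sided, gave p = 0.143 over 4 against 4 mice, for which the smallest possible p is 0.0286. Dcn measured 176.5, 199.8, 232.7 and 183.5 CPM with vehicle and 224.0, 225.0, 269.4 and 151.5 CPM with ISOGK. The groups overlapped, with a log2 fold change of 0.13 and an SE of 0.16 (95% interval -0.21 to 0.48, adjusted p = 0.652). The interval of Dcn, the most abundant of the 10 genes, was the second narrowest after that of Tgfb1.

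Lysyl oxidase, encoded by Lox, crosslinks collagen and elastin, and Timp1 encodes an inhibitor of matrix metalloproteinases that is released by activated stellate cells. Both genes had few counts. Lox had 50, 17, 22 and 9 counts in the vehicle mice and 11, 19, 19 and 9 counts in the ISOGK mice. Vehicle mouse 1 alone accounted for the higher vehicle mean: the log2 fold change was -0.50 with an SE of 0.53 (95% interval -1.67 to 0.67, adjusted p = 0.616), and 0.24 without that mouse. Timp1 had 4, 5, 12 and 6 counts with vehicle and 26, 18, 0 and 4 counts with ISOGK. The ISOGK group thus held the highest values and a library with no read, for which 0 counts allow up to 0.170 CPM. The exact permutation test, two-sided, gave p = 0.8 for Timp1 with n = 4 a group. With no filter on low counts, edgeR gave Timp1 a log2 fold change of 1.08 with an SE of 0.79 (95% interval -0.63 to 2.80, adjusted p = 0.496 over 16540 genes).

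**Figure D2:**
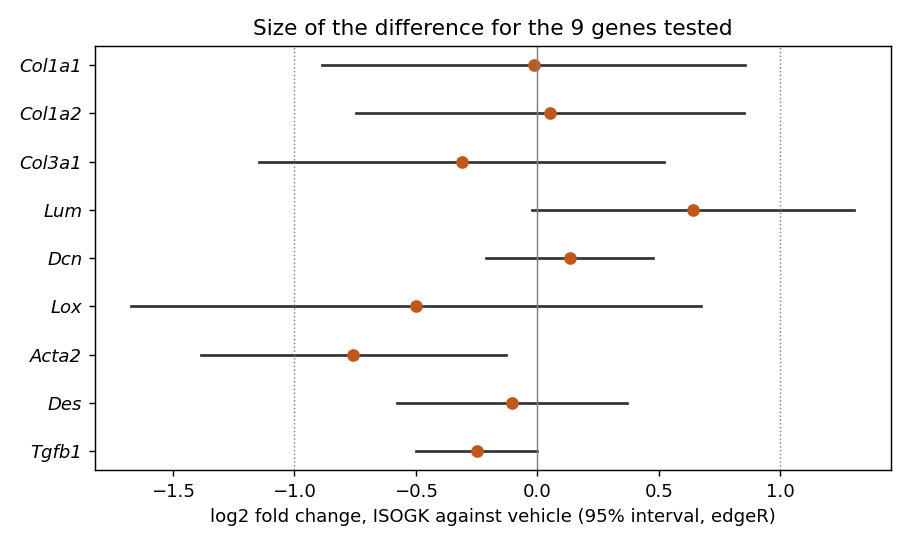
Log2 fold change of ISOGK against vehicle (x axis) for the 9 genes tested; points are edgeR estimates, lines are 95% intervals, and dotted lines mark a log2 fold change of 1 in either direction. The interval of Acta2 runs from -1.38 to -0.13 and that of Lum from -0.02 to 1.30, while the 3 collagen genes and Lox have wide intervals around zero; no gene passed after adjustment over all genes.

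Acta2 encodes smooth muscle alpha actin, the classical marker of stellate cells that have become myofibroblasts and a constitutive protein of vascular smooth muscle. Acta2 measured 3.91, 5.02, 5.22 and 3.22 CPM in the vehicle mice and 2.60, 1.85, 1.58 and 4.24 CPM in the ISOGK mice. ISOGK mice 1 to 3 lay below every vehicle mouse, and ISOGK mouse 4 lay within the vehicle range. With means of 4.34 ± 0.946 and 2.57 ± 1.197 CPM, the log2 fold change was -0.76 with an SE of 0.29 (95% interval -1.38 to -0.13), the unadjusted p was 0.0218 and the adjusted p was 0.133 (edgeR). The exact permutation test, two-sided, gave p = 0.0857 with 4 mice a group. The estimate stayed between -1.11 and -0.60 in the 16 other fits, and the adjusted p between 0.0247 and 0.285.

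Vascular smooth muscle markers were read beside Acta2, which these cells also express. Of 10 such markers, 7 were tested and 2 fell with ISOGK, where 3.44% of all tested genes were called lower: Tpm2, which encodes a beta tropomyosin of muscle, and Myl9, which encodes a regulatory myosin light chain. Tpm2 measured 4.97, 4.07, 5.14 and 5.67 CPM with vehicle and 1.96, 1.79, 2.43 and 2.67 CPM with ISOGK, with no overlap. Its log2 fold change of -1.16 (SE 0.19, adjusted p = 0.0040, edgeR) passed in all 16 other fits. Myl9, at 1.79 to 2.29 CPM with vehicle and 0.844 to 1.62 CPM with ISOGK, had a log2 fold change of -0.92 (SE 0.25, adjusted p = 0.0459), which was lost in 9 of 16 other fits, including every fit without 1 mouse except that without ISOGK mouse 4. Tagln, which encodes the actin-binding transgelin, had a log2 fold change of -0.74 and an adjusted p of 0.0631. The heavy chain gene Myh11 had a log2 fold change of -0.50 and an adjusted p of 0.240. The other 3 were closer to zero: Smtn at -0.17, Lmod1 at -0.17 and Synpo2 at 0.17, with adjusted p-values of 0.652 to 0.828. The median of the 7 was -0.50, with 6 below zero.

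Summed over the 10 markers, the smooth muscle level was 23.7 to 29.5 CPM with vehicle and 13.5 to 21.6 CPM with ISOGK, so that the groups did not overlap. Groups that do not overlap were found for 15.3% of all tested genes (7.92% higher and 7.36% lower). The highest ISOGK value, 21.6 CPM, belonged to ISOGK mouse 4, the same mouse in which Acta2 was highest within its group. Cnn1, which encodes the smooth muscle protein calponin, had 21 counts there and 1 to 3 counts in the other ISOGK mice. Pln was at 0 in 4 mice and Actg2 in 1, and no marker was at 0 in all mice. The part of smooth muscle in the Acta2 values was not tested.

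Des encodes desmin, the intermediate filament of muscle and a marker of rodent stellate cells irrespective of activation. Des measured 2.71, 3.36, 5.37 and 4.60 CPM in vehicle mice and 4.07, 3.54, 4.18 and 3.20 CPM in ISOGK mice. The ISOGK mice lay inside the vehicle range, with a log2 fold change of -0.10 and an SE of 0.22 (95% interval -0.58 to 0.37, adjusted p = 0.814). Vehicle mouse 4, which contained skeletal muscle transcripts (366 counts of Acta1 and 451 of Myh4, against at most 1 in any other mouse), was the second highest in Des. Without it the log2 fold change of Des was -0.03 and that of Acta2 was -0.88 (adjusted p = 0.954 and 0.118). All 12 skeletal muscle markers were highest in that mouse, and their part in its Des value was not tested.

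Tgfb1 encodes the ligand that drives collagen synthesis in stellate cells and is made in liver by macrophages, endothelium and other cells as well. Tgfb1 measured 17.7, 14.2, 15.8 and 13.5 CPM with vehicle and 13.4, 13.1, 12.9 and 11.998 CPM with ISOGK. Every ISOGK mouse lay below every vehicle mouse, though vehicle mouse 4 (13.53 CPM) and ISOGK mouse 1 (13.44 CPM) nearly met. The means were 15.3 ± 1.87 and 12.9 ± 0.614 CPM, and the log2 fold change was -0.25 with an SE of 0.11 (95% interval -0.50 to -0.00171, unadjusted p = 0.0487, adjusted p = 0.204, edgeR). The exact permutation test of Tgfb1, two-sided with 4 mice a group, gave the smallest p it can give, 0.0286. Tgfb1 was 1 of the 9 tested genes whose groups did not overlap, in the lower direction, against 7.36% of all tested genes.

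Other genes of the TGF-beta pathway were read from a list of ligands, receptors, Smads, latent binding proteins, activators and target genes. Of 22 listed, 19 were tested and 1 fell, against 3.44% of all tested genes called lower and 7.55% called in either direction. The single calls in the 3 lists that follow, of 13 to 25 genes each, stand against the same shares. The gene that fell was Tgfbr1, which encodes the type I receptor kinase. Tgfbr1 measured 25.5, 24.7, 22.9 and 20.1 CPM with vehicle and 17.2, 17.7, 18.1 and 13.5 CPM with ISOGK. The groups did not overlap, and the log2 fold change was -0.49 with an SE of 0.12 (adjusted p = 0.0319, edgeR). The call was lost without vehicle mouse 1, 2 or 3 or ISOGK mouse 2 or 4, with adjusted p-values up to 0.105. The type II receptor gene Tgfbr2 had a log2 fold change of 0.15 (adjusted p = 0.348), and the ligand gene Tgfb3 had 0.72 (SE 0.30, adjusted p = 0.164).

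Neither of the target genes read individually passed. Ccn2, which encodes connective tissue growth factor, had a log2 fold change of 0.32 (adjusted p = 0.535), and Smad7, the inhibitory Smad, had 0.09 (adjusted p = 0.822). The median log2 fold change of the 19 pathway genes was 0.05.

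The list of other matrix genes held further collagens, laminin chains, small proteoglycans and matrix glycoproteins. Of 26 listed, 25 were tested and 1 rose: Col12a1, which encodes a collagen that decorates the surface of type I fibrils. Col12a1 measured 1.35, 0.791, 1.48 and 0.893 CPM with vehicle and 2.35, 3.22, 2.88 and 3.98 CPM with ISOGK, with no overlap. The log2 fold change was 1.46 with an SE of 0.26 (95% interval 0.89 to 2.03, adjusted p = 0.0070, edgeR), and the call was made in all 16 other fits. ISOGK mouse 4, lowest in Col1a1, Col1a2 and Col3a1, was the highest mouse in Col12a1. The basement membrane collagen gene Col4a2 had a log2 fold change of -0.24 (adjusted p = 0.164) and the fibrillar collagen gene Col5a3 had -0.46 (adjusted p = 0.120). Over the 25 genes the median was -0.00, with 12 above and 13 below zero.

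Among the 16 genes of collagen maturation, all tested, 1 fell. Serpinh1 encodes the chaperone HSP47, which binds procollagen in the endoplasmic reticulum. Serpinh1 measured 14.1, 15.3, 23.4 and 18.9 CPM with vehicle and 12.1, 12.1, 11.6 and 6.65 CPM with ISOGK, with no overlap, and a log2 fold change of -0.76 (SE 0.21, adjusted p = 0.0495, edgeR). The call was lost in 12 of 16 other fits, among them the fit without any 1 of the 8 mice, with adjusted p-values up to 0.125. The prolyl hydroxylase gene P4ha2 had a log2 fold change of -0.84 (adjusted p = 0.140), and Loxl4, a relative of Lox, had 1.08 (adjusted p = 0.212).

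Of 15 genes of matrix degradation, 13 were tested and 1 fell. Mmp15, which encodes a membrane-bound metalloproteinase, measured 18.4, 16.5, 22.2 and 21.2 CPM with vehicle and 13.4, 11.7, 15.5 and 8.64 CPM with ISOGK. The groups did not overlap, and the log2 fold change was -0.67 with an SE of 0.17 (adjusted p = 0.0322, edgeR), lost without vehicle mouse 1, 3 or 4 or ISOGK mouse 2. Mmp19 had a log2 fold change of -0.34 (adjusted p = 0.0512) and Ctsk, which encodes the collagen-degrading cathepsin K, had 1.11 (adjusted p = 0.0747). The median over the 13 genes was 0.21.

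**Figure D3:**
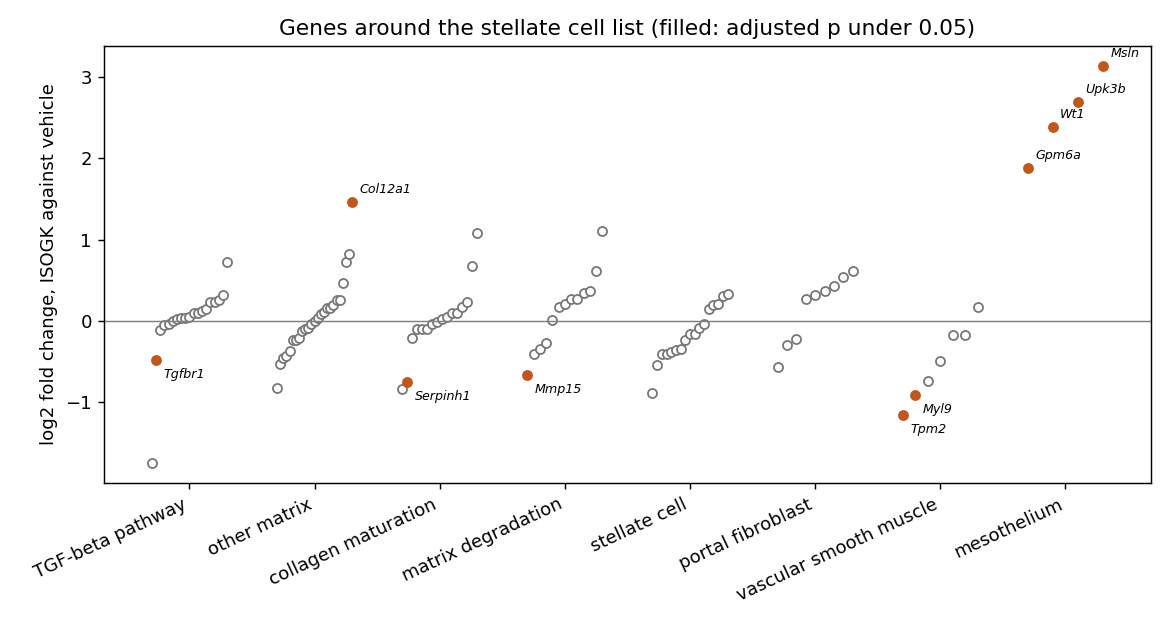
Log2 fold change of ISOGK against vehicle (y axis) for the tested genes of the 4 pathway lists and of 4 marker lists (x axis, genes ordered by value within a list); filled points passed an adjusted p of 0.05 (edgeR). Most points lie near zero and unfilled; Tpm2 and Myl9 stand below zero and the 4 mesothelial genes Gpm6a, Wt1, Upk3b and Msln stand between 1.88 and 3.14.

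Markers listed for the possible cell sources of these transcripts were measured in the same libraries. Of 18 stellate cell markers, 17 were tested and 0 passed (edgeR), with 0 higher and 3 lower at an unadjusted p under 0.05. Over all tested genes, 12.5% were higher and 11.6% lower at that threshold. The summed level of the 18 markers was 278 to 359 CPM with vehicle and 211 to 374 CPM with ISOGK, and the groups overlapped. Lrat, which encodes the enzyme that makes the stored retinyl esters of quiescent stellate cells, measured 7.48, 11.04, 10.2 and 9.65 CPM with vehicle and 7.50, 2.96, 7.46 and 2.78 CPM with ISOGK. Its log2 fold change was -0.89 with an SE of 0.32 and an adjusted p of 0.130. Colec10 had a log2 fold change of -0.54 (adjusted p = 0.145) and Rgs5 had -0.41 (adjusted p = 0.204). The median of the 17 markers was -0.16. Gfap, a marker of quiescent stellate cells, was below the filter, with 4, 4, 7 and 2 counts with vehicle and 8, 6, 8 and 11 counts with ISOGK. In CPM it was 0.0893 to 0.273 with vehicle and 0.317 to 0.576 with ISOGK, higher in every ISOGK mouse and so opposite in direction to Lrat (exact permutation p = 0.0286, two-sided, n = 4, the smallest possible). Of the 17 tested markers, 1 had groups that did not overlap, in the lower direction. Groups did not overlap for 7.92% of all tested genes in the higher direction and 7.36% in the lower.

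Portal fibroblast markers were summed to 37.3 to 62.4 CPM with vehicle and 55.5 to 80.5 CPM with ISOGK, with overlap. Gas6 made up the largest part of this sum, at 20.4 to 36.4 CPM with vehicle and 35.9 to 45.6 CPM with ISOGK. Of 12 listed, 9 were tested and 0 passed (edgeR), with 2 higher and 0 lower at an unadjusted p under 0.05. The shares of all tested genes at that threshold were 12.5% higher and 11.6% lower. The 9 markers had a median log2 fold change of 0.32. Fbln2, which encodes fibulin 2, had a log2 fold change of 0.53 (adjusted p = 0.147), Gas6 had 0.36 (adjusted p = 0.199) and Dpt, which encodes dermatopontin, had 0.61 (adjusted p = 0.210).

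Mesothelial markers, of the cell layer that covers the liver, were the list that differed most. Of 6 listed, 4 were tested and all 4 rose, where 4.11% of all tested genes were called higher. The summed level of the 6 was 1.38 to 5.23 CPM with vehicle and 7.60 to 27.0 CPM with ISOGK, without overlap. Groups did not overlap in the higher direction for 7.92% of all tested genes. Msln, which encodes mesothelin, measured 0.100, 0.0396, 1.05 and 1.12 CPM with vehicle and 5.30, 8.07, 5.03 and 2.41 CPM with ISOGK. Its log2 fold change of 3.14 had an SE of 0.70 (adjusted p = 0.0329, edgeR). The other 3 were Gpm6a at 1.88 (adjusted p = 0.0200), Upk3b at 2.70 (adjusted p = 0.0405) and Wt1 at 2.38 (adjusted p = 0.04996, just inside the threshold). Between 5 and 10 of the 15 or 16 other fits lost these calls. The list had 0 calls without ISOGK mouse 2, 1 call without vehicle mouse 1 or 2 or ISOGK mouse 1 or 3, and 6 without ISOGK mouse 4. Over all tested genes, 252 of 12427 were called higher without ISOGK mouse 2 and 392 of 12457 without ISOGK mouse 4.

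Counts behind the mesothelial markers were low, with 1 to 27 reads of Msln in each vehicle mouse and 46 to 153 in each ISOGK mouse. ISOGK mouse 4 was the lowest ISOGK mouse in the summed level, as it was in Lum and the 3 collagens. No marker was at 0 in any mouse. The part of mesothelial cells in the values of Lum, Col12a1 or the collagens was not tested.

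**Figure D4:**
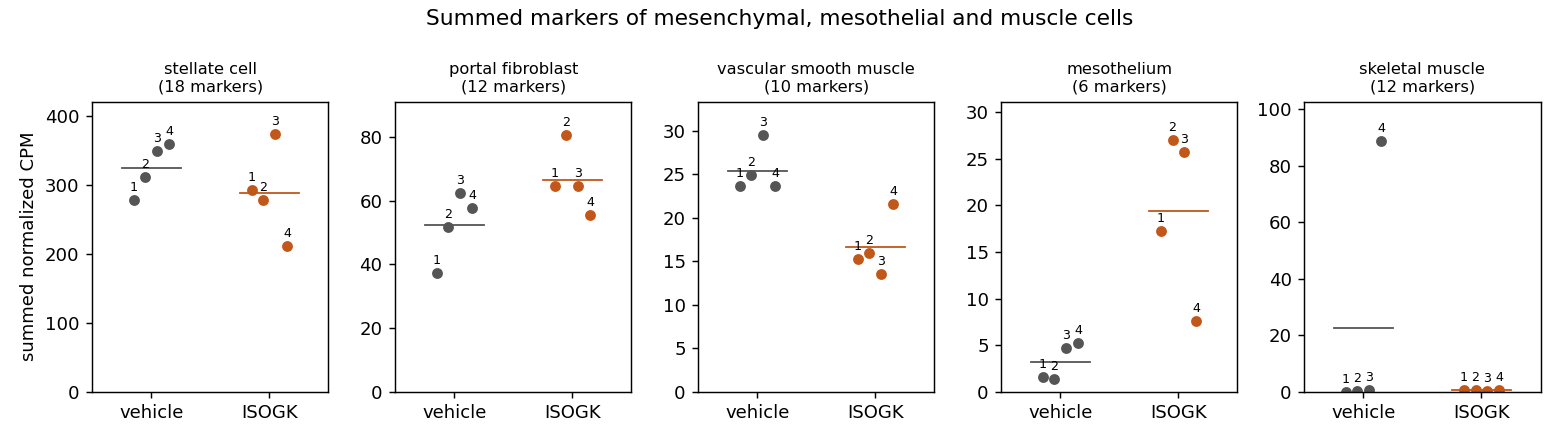
Summed normalized CPM (y axis, linear and starting at 0) of the markers of 5 cell types in each mouse; points are mice labelled by number and the horizontal line is the group mean (n = 4). Smooth muscle markers were lower and mesothelial markers higher in every ISOGK mouse than in every vehicle mouse, stellate cell and portal fibroblast markers overlapped, and skeletal muscle markers stood at 88.9 CPM in vehicle mouse 4 alone.

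Markers of the other liver cell types were read in the same way. Over all tested genes, 4.11% were called higher and 3.44% lower. At an unadjusted p under 0.05 (edgeR), 12.5% were higher and 11.6% lower. The 10 Kupffer cell markers had a median log2 fold change of -0.35 with 9 of 10 below zero, and 0 passed (edgeR), with 0 higher and 2 lower at an unadjusted p under 0.05; Cd5l came closest, at -0.39 (adjusted p = 0.0639). The 10 sinusoidal endothelial markers had a median of -0.09 and 0 calls, with 0 higher and 1 lower at an unadjusted p under 0.05. Of 6 cholangiocyte markers, 5 were tested and Sox9 rose (log2 fold change 0.51, SE 0.14, adjusted p = 0.0494), a call lost in 12 of 16 other fits. All 5 were above zero, with a median log2 fold change of 0.61, and 4 were higher at an unadjusted p under 0.05. Krt19, a keratin gene of bile duct cells, had a log2 fold change of 1.39 (adjusted p = 0.0550), Krt7 had 1.21 (adjusted p = 0.172) and Spp1, which encodes osteopontin, had 0.61 (adjusted p = 0.188). The summed cholangiocyte level was 27.6 to 34.8 CPM with vehicle and 28.3 to 69.2 CPM with ISOGK, with overlap. Spp1 made up the largest part of it, at 19.9 to 27.9 CPM with vehicle and 20.5 to 55.0 CPM with ISOGK. The 6 hepatocyte markers and the 2 tested T and B cell markers had 0 calls, and 0 of either list had an unadjusted p under 0.05.

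Within the groups, the collagens varied together from mouse to mouse. Deviations of log2 CPM from the group mean were compared for all 45 pairs of the 10 genes over 8 mice. Col1a1 and Col3a1 gave Pearson's r = 0.966 and Spearman's rho = 0.857, with permutation p-values within groups of 0.00521 and 0.0260. Adjusted over the 45 pairs these were 0.0586 and 0.195. Col1a1 and Col1a2 gave r = 0.953 and rho = 0.905 (permutation p = 0.00521 and 0.0156, adjusted 0.0586 and 0.176). Col1a2 and Col3a1 gave r = 0.932 and rho = 0.952 (permutation p = 0.00347 and 0.00521, adjusted 0.0586 and 0.176). Without the 2 mice farthest from the median, r was 0.865, 0.843 and 0.771, respectively. None of the 45 pairs passed after adjustment. The genes compared share a library, its depth and its RNA composition.

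Lum followed the mean of the 3 collagens with r = 0.917, and Dcn followed it with r = 0.785. Lum and Dcn, neighbours on chromosome 10, gave r = 0.894 and rho = 0.881 (permutation p = 0.0191 and 0.0156, adjusted 0.123 and 0.176), and r = 0.898 without the 2 farthest mice. ISOGK mouse 4 lay furthest below its group, at -1.13 for Col1a1, -0.999 for Col3a1, -0.91 for Col1a2, -0.86 for Lum and -0.49 for Dcn, while its Acta2 lay 0.80 above. The collagens and Acta2 therefore had negative coefficients, of which Col3a1 with Acta2 was the largest in size (r = -0.616, rho = -0.405, permutation p = 0.188 and 0.394, adjusted 0.496 and 0.793). Without ISOGK mouse 4 it was -0.02, so the relation rested on that mouse. Tgfb1 (r = 0.0272) and Lox (r = 0.0200) did not follow the collagen mean, and Des gave 0.590.

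**Figure D5:**
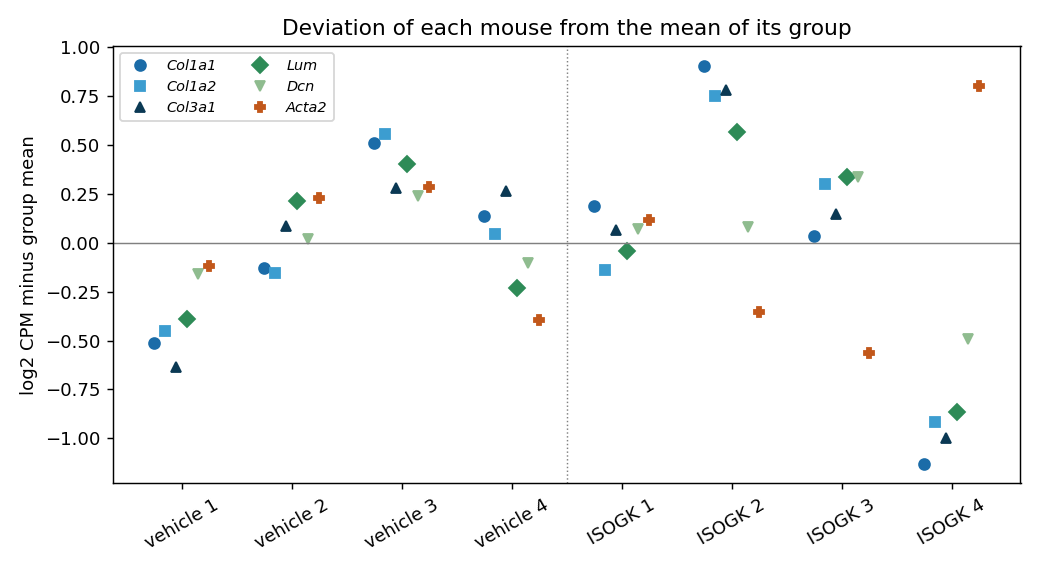
Deviation of log2 CPM from the group mean (y axis) in each of the 8 mice (x axis) for the 3 collagens, Lum, Dcn and Acta2. Collagen symbols cluster within each mouse, highest in ISOGK mouse 2 and lowest in ISOGK mouse 4, where Acta2 stands apart at 0.80.

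Among the genes outside the 10 whose deviations followed the collagen mean most closely, of 12298 compared, were Timp2 (r = 0.991), Ddr1 (0.982), Gins2 (0.980), Cx3cl1 (0.971), Adamts2 (0.967), Slc43a3 (0.963), Col6a3 (0.963), Elapor1 (0.961) and Pdgfrb (0.961), each over 8 mice. They include the metalloproteinase inhibitor gene Timp2, the collagen receptor gene Ddr1, the procollagen peptidase gene Adamts2, a type VI collagen gene and the platelet-derived growth factor receptor of stellate cells. Ddr1, Gins2, Cx3cl1, Slc43a3 and Elapor1 were on none of the matrix or marker lists read here. All of these genes were picked for their coefficients, which are a description with no test. Over all genes the coefficients were wide, with 5% below -0.712 and 5% above 0.738. Leaving out any single mouse left each of these between 0.903 and 0.999. Timp2 had a log2 fold change of 0.26 (adjusted p = 0.444) and Pdgfrb of -0.09 (adjusted p = 0.879).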

How the data were processed

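Per the labels, libraries were made from total liver RNA, 4 vehicle and 4 ISOGK samples. The authors aligned single-end reads with HISAT2 (version 2.0.5) and computed counts per gene with StringTie (version 1.3.3b). The submitters' processing notes name mm10. The deposited table holds raw counts, whole numbers for each gene symbol. Columns named DMSO were taken as vehicle, and no other column was present. Libraries of a group differed by far more than sampling noise (chi-square per gene of at least 18.1, where sampling alone gives 1), so none was counted as a duplicate.

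Genes were filtered with filterByExpr (minimum count 10, minimum total 15), which left 12307 of 16540. After TMM scaling, edgeR 4.0.16 (limma 3.58.1, R 4.3.3) fitted robust quasi-likelihood models over the whole table, a step checked on simulated data, and p-values were adjusted by Benjamini-Hochberg. Calls required an adjusted p under 0.05. CPM carry TMM factors, and log2 CPM a prior count of 2. Single genes were checked with exact permutation tests, and pairs of genes with 576 permutations within groups. Reads carry no molecular identifiers, so depth limits cover counting error only. Each 0 count was given an upper limit of 3 counts.

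The 10 members and all lists were chosen with earlier results of these data known. The text names all members, every called gene of a list and otherwise up to 3 with the smallest adjusted p, and the 10 genes most like the collagen mean, of which 1 is not reported here; Smad7, Ccn2, Myh11, Smtn, Lmod1, Synpo2, Spp1, Cnn1, Actg2, Pln, Gfap, Acta1 and Myh4 were named after their values were seen. Levels per kilobase used the GENCODE M21 transcript with the longest coding sequence (GRCm38, the build also called mm10). Alternatives were limma-voom, DESeq2 1.42.0, other scalings and filters, a replicate block and leaving out each sample.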

Additional observations from a re-analysis of the deposited data

Results flagged for a closer look

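In 7 of 144 groups of 4 mice examined (the 10 genes, the sums of 10 marker lists, 4 ratios and the tested genes of the lists that were named, in each treatment group), 1 mouse stood apart from the other 3. Chance alone would give about 7.2. The widest gap was in the skeletal muscle markers, which summed to 88.9 CPM in vehicle mouse 4 against 0 to 0.623 CPM in the other vehicle mice. Des, a muscle gene, measured 4.60 CPM in that mouse, second to the 5.37 CPM of vehicle mouse 3, and the part of muscle RNA in that value was not tested.

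ISOGK mouse 4 stood apart in 3 genes: Serpinh1, at 6.65 CPM against 11.6 to 12.1 in the other ISOGK mice, Ctsk, at 0.524 CPM against 1.23 to 1.27, and Fgb, which encodes the fibrinogen beta chain made by hepatocytes, at 16848 CPM against 6707 to 7042. The log2 fold change of Serpinh1 kept its sign in every fit without 1 mouse. Tgfb3 measured 2.53 CPM in vehicle mouse 3 against 1.38 to 1.56, Col5a3 measured 13.1 CPM in ISOGK mouse 2 against 9.01 to 9.27, and Stab1, a gene of sinusoidal endothelium, measured 52.6 CPM in ISOGK mouse 3 against 47.9 to 48.7.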

How the results depend on the processing

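Over the 9 tested genes, 143 values from other fits were compared with the reported ones: 128 kept the direction and the side of the threshold, 2 newly passed and 13 changed sign. The sign changes were Col1a1 without vehicle mouse 3 (0.18), vehicle mouse 4 (0.01), ISOGK mouse 3 (0.02) or ISOGK mouse 4 (0.25), for a range of -0.38 to 0.25 over single mice left out; Col1a2 with limma-voom (-0.035), with the replicate block (-0.0049), with library size alone (-0.072) and over single mice left out (-0.24 to 0.28); Des (-0.25 to 0.072); and Lox (-0.77 to 0.24). In the exact tests, Timp1 went from 0.31 to -0.0075 with a prior count of 0.5, and Dcn from 0.11 to -0.019 with library size alone. Leaving out single mice gave 0 to 2 called members, 379 to 1235 called genes overall (929 reported) and 123 to 250 with the fold limit (200 reported); DESeq2 called 1435. Called genes ranged from 0 to 1 for the TGF-beta pathway, 1 to 3 for other matrix, 0 to 1 for collagen maturation and 0 to 2 for matrix degradation. Collagen maturation had 0 calls with limma-voom, with DESeq2 size factors and with no filter beyond 1 count; matrix degradation had 2 with DESeq2, with DESeq2 size factors, with library size alone and with 10 counts in every library. The cause was not tested. With library size alone the median of all genes moved by -0.13, and 262 genes were higher and 804 lower, against 506 and 423 as reported. The median r of the 45 pairs was 0.190 (0.333 as Spearman's rho, 0.109 to 0.526 without single mice, the last without vehicle mouse 1; these were added after seeing the data). Samples with the same number did not deviate together (r = 0.0130, -0.0144, 0.0754 and 0.0849, and 2 of 8 samples were most like their own number), so the numbers are not taken as pairs; with the replicate block 827 genes and 0 members were called. At a common biological coefficient of variation of 0.164, 4 mice a group limit what can be called, and Timp1 and Lox also had few counts.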

Other observations

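Ratios of counts between members were formed within each mouse, a comparison chosen after earlier results of these data were known. The ratio of Lum to Col1a1 counts was 1.34, 1.56, 1.13 and 0.946 in the vehicle mice and 1.72, 1.59, 2.49 and 2.45 in the ISOGK mice. Every ISOGK mouse lay above every vehicle mouse, including ISOGK mouse 4, in which both genes were low. The means were 1.25 ± 0.264 and 2.06 ± 0.474 (SD, n = 4), and the exact permutation test, two-sided, gave p = 0.0286, the smallest it can give. Adjusted over the 4 ratios compared it was 0.114.

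The other 3 ratios overlapped between the groups. Col1a1 to Col1a2, the chains of type I collagen, had a ratio of 0.479 ± 0.0240 with vehicle and 0.449 ± 0.0923 with ISOGK (exact permutation p = 0.429, n = 4). Col3a1 to Col1a1 was 3.90 ± 0.563 and 3.24 ± 0.333 (exact permutation p = 0.114), and Lum was 5.19% ± 0.763 and 7.33% ± 1.95 of Dcn (exact permutation p = 0.0857). A ratio within a library shows unequal values, not which gene changed.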
